A study of Mus musculus with 2 samples.

Results

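The 46 genes described here carry signals from the innate receptors of a macrophage to the transcription factor NF-κB. They comprise receptors and their cofactors, the Toll-like receptor adaptors, the IRAK, TRAF, TAK1 and IKK proteins, the NF-κB subunits, the IκB proteins and the ubiquitin enzymes that restrain them. They were taken by gene symbol from a list whose rule used no measured value, although it was drawn up with earlier results of these data known, and 46 of the 46 were listed in both libraries, out of 15623 genes listed in either. RNA was sequenced from peritoneal macrophages of wild type C57BL/6 mice aged 6 to 8 weeks, elicited with 4% thioglycolate, an irritant that draws macrophages into the cavity, and then enriched by adherence and starved in 0.5% serum. The first library came from cells left non-treated (NT) and the other from cells given mouse IL-4 for 6 h. Each group was 1 library, and neither the labels nor the methods say how many mice it drew on. The labels also give bone marrow as tissue, whereas the source and the protocol give the peritoneal cavity.

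Toll-like receptors at the cell surface and in endosomes, together with CD14 and MD-2, bind microbial products and recruit the adaptors MyD88, Mal, TRAM and TRIF. IRAK kinases then pass the signal to TRAF6, which builds ubiquitin chains on which TAK1 activates the IKK complex. IKK marks the IκB proteins for destruction so that NF-κB dimers enter the nucleus. Many of the genes that NF-κB switches on, such as those for IκBα and A20, encode its own inhibitors. In macrophages this pathway drives inflammatory cytokines, whereas IL-4 acts through Stat6 and the alternative (M2) program. The comparison gives the mRNA level of the pathway's components with and without IL-4, in cells that had received no microbial stimulus.

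The NT library held 11035641 and the IL-4 library 11250099 expected counts, the deposited estimates of the reads of each gene. At this depth 3 counts, taken as the limit that a count of 0 allows, equalled 0.272 CPM (counts scaled for the library total) in NT and 0.267 CPM in IL-4. The 6 macrophage markers were present in both libraries, with 129463 and 126458 counts of Lyz2, and 1 of them, the receptor gene Csf1r, was called higher in IL-4 (6236 and 11896 counts). Of 42 markers of other cells, 1 was called higher (Csf3r, 1758 and 3291 counts) and 2 lower (Siglecf, 53 and 27, and Msln, 12 and 2). The neutrophil list summed to 170 CPM in NT and 302 CPM in IL-4, nearly all from Csf3r. Of its other genes, Cxcr2 (84.1 and 83.9 counts), S100a8 (35 and 21) and Ltf (2 and 3) were not called. Ly6g, S100a9, Mpo, Camp and Retnlg were listed in neither library. The lists of B, T, mast and dendritic cells and eosinophils each summed to between 2.44 and 9.79 CPM in either library, and the mesothelial and fibroblast list to 103 and 85.4 CPM. Of 8 genes of the IL-4 response, 8 were called higher, with Arg1 at 30 counts in NT and 7711 in IL-4. The part of Csf1r, Csf3r and the other markers in the results that follow was not tested.

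A log2 ratio is that of IL-4 over NT for counts scaled to the library totals, with 0.5 count added. A gene was called at a ratio of at least 0.75 in size, with an exact binomial p of at most 0.05 and a Benjamini-Hochberg value of at most 0.5 over all genes tested. Intervals in brackets are 95% Clopper-Pearson intervals of the ratio. Test and interval compare the reads of these libraries and not the conditions, and there is no replicate check. With 1 library per group both cover counting error only. PCR reads are not independent molecules, so even for counting error the intervals may be too narrow.

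Of the 46 genes, 1 was called higher in IL-4 (Ripk2), 5 were called lower (Cd14, Nod2, Irak2, Traf3 and Nfkbiz) and 40 were not called. Over all 15593 genes tested, 4.07% were called higher and 6.28% lower, 10.4% in all. Among the pathway genes 36 ratios lay under 0 and 10 over 0, and their median was -0.20, beside a median of -0.03 and 54.7% of ratios under 0 over all genes tested. Among genes with at least 50 counts in the library with more, the median was -0.18 over 44 pathway genes and -0.01 over all, and 4.32% of all such genes were called higher and 6.83% lower. Of the called pathway genes Nod2 alone had fewer than 50 counts. In 14 of the 46 the ratio was -0.5 or lower, and in 1 it was 0.5 or higher. Over all genes tested, 23.9% had a ratio of -0.5 or lower. Among genes with at least 50 counts, 12 of the 44 pathway genes and 14.3% of all were at -0.5 or lower, and 1 of the 44 and 8.74% of all were at 0.5 or higher. Most pathway ratios were therefore small and negative. In bulk RNA, fewer cells that express a gene and less RNA of it per cell cannot be told apart.

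**Figure D1:**
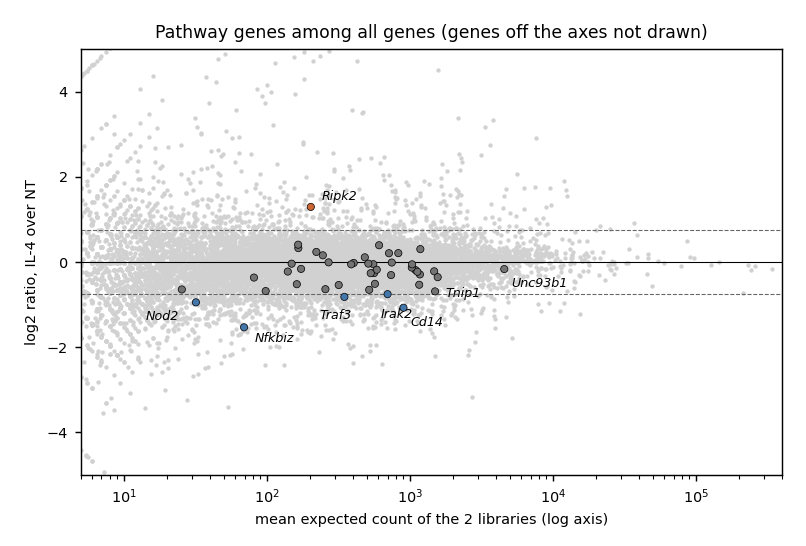
Each gene's log2 ratio, IL-4 to NT, is plotted (vertical axis) against the mean expected count of the 2 libraries (log axis) for all genes (light grey) and the 46 pathway genes (outlined, orange where called higher, blue where called lower, dark grey where not called), with dashed lines at the 0.75 threshold. Most pathway genes lie just under 0, with Ripk2 above and Nfkbiz and Cd14 below them.

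The interval of the ratio left out 0 in 31 of the 46 genes, 7 of them above and 24 below it. This was so upward for 17.9% and downward for 20.4% of all genes tested, and for 26.0% and 29.0% of those with at least 50 counts. The 7 above 0 were Ripk2, Nfkb1, Rel, Nfkbib, Tnfaip3, Ticam1 and Nod1. With the exception of Ripk2 these had ratios of 0.41 or less. The counts depended on transcript length. With the length trend subtracted, the intervals of Traf6, Cyld and Ikbkg lay above 0, and those of Ticam1, Tab3 and Ripk1 included it.

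The genes differed more in level than in ratio. On the FPKM scale, which is scaled for transcript length and depth, they ran from 0.82 (Nod2) to 191.64 (Unc93b1) in NT and from 0.42 to 172.14, in the same 2 genes, in IL-4. In each library 28 of the 46 were over 10 FPKM. The 10 with the highest mean FPKM were Unc93b1, Tnip1, Cd14, Ikbke, Nfkbib, Rela, Irak1, Tbk1, Nfkbia and Ikbkb. They hold no adaptor or TRAF gene and no gene of the TAK1 complex.

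**Figure D2:**
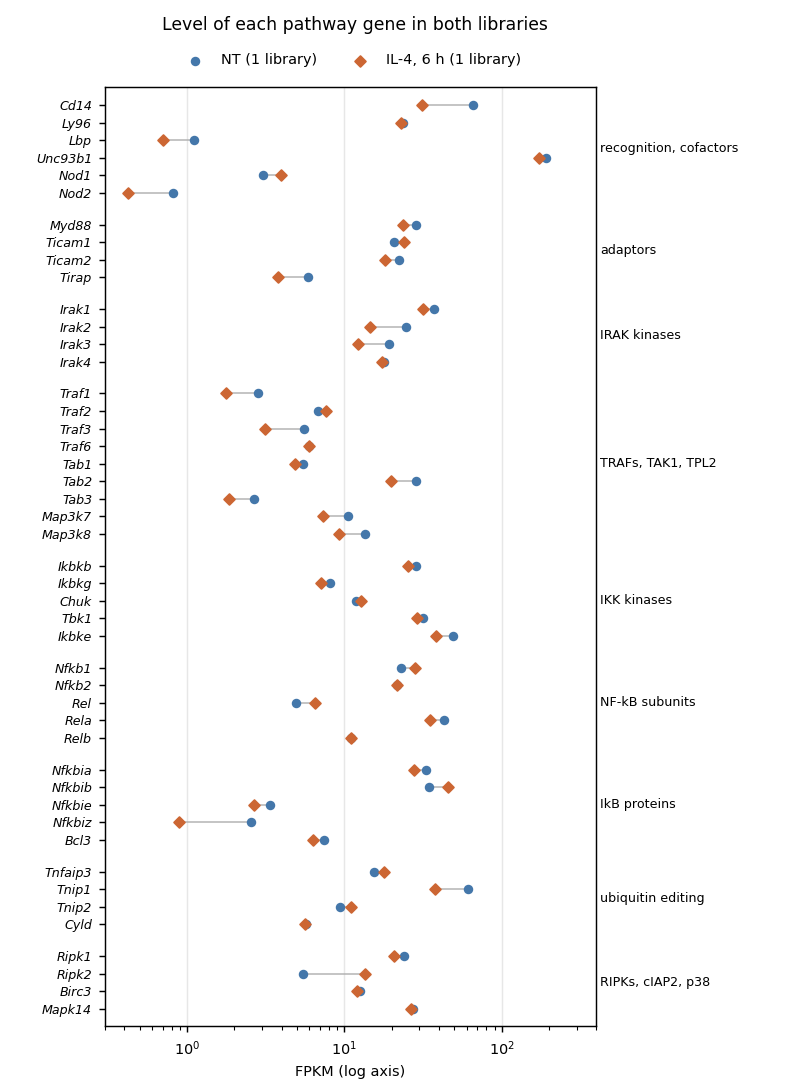
FPKM (log axis) of each of the 46 genes is shown in the NT library and the IL-4 library, with the genes grouped by role. Levels run from under 1 FPKM for Nod2 to over 170 FPKM for Unc93b1, and the 2 points of a gene are close together except in Cd14, Nfkbiz, Ripk2 and a few others.

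At the recognition step, the LPS co-receptor gene was lower with IL-4 while its partner was level. Cd14 encodes the protein that hands lipopolysaccharide to MD-2 and Toll-like receptor 4. It had 1219 counts (65.96 FPKM) in NT and 591 (31.35 FPKM) in IL-4, a log2 ratio of -1.07 [-1.22, -0.93], or 2.10-fold lower. The gene lies on chromosome 18 (36725064 to 36726815, GRCm38). Ly96, which encodes MD-2, had 150 and 149 counts, a ratio of -0.04 [-0.37, 0.30]. Cd14 thus took 23.1% of the summed FPKM of the 6 recognition genes in NT and 13.5% in IL-4. Lbp, the gene for the serum protein that delivers lipopolysaccharide to CD14, was near the bottom of the range at 1.11 and 0.70 FPKM, and its interval [-1.55, 0.20] spanned 0.

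Unc93b1, whose product escorts the nucleic acid-sensing Toll-like receptors to endosomes, was the most abundant pathway gene on the FPKM scale in each library. It had 4803 counts in NT and 4370 in IL-4, a ratio of -0.16 [-0.22, -0.10]. With this many reads the interval was narrow and did not come near that of Cd14.

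The cytosolic receptors for bacterial cell wall fragments had opposite signs. Nod2 was called lower, with 42 counts (0.82 FPKM) in NT and 22 (0.42 FPKM) in IL-4, a ratio of -0.95 [-1.78, -0.18], which rests on few reads (chromosome 8, 88647315 to 88688474). Nod1 was not called, with 146 and 187 counts (3.04 and 3.95 FPKM) and a ratio of 0.33 [0.01, 0.65]. Ripk2 encodes RIPK2, the kinase that both receptors need to activate NF-κB, and it was the 1 pathway gene called higher. It had 116 counts (5.47 FPKM) in NT and 291 (13.46 FPKM) in IL-4, a ratio of 1.30 [0.98, 1.62], or 2.45-fold higher (chromosome 4, 16122732 to 16163678). The kinase mRNA was therefore higher in the same library in which Nod2, the receptor with the lower FPKM, was called lower.

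The other genes set beside Ripk2 were nearly level. Ripk1, a kinase of the tumor necrosis factor receptor complex, had 1210 and 1054 counts, a ratio of -0.23. Mapk14, which encodes the p38α kinase, had 1049 and 1031 counts, a ratio of -0.05. Birc3, the gene of the ubiquitin ligase cIAP2, had 393 and 386 counts, a ratio of -0.05. Its reads are partly shared with those of Birc2, its close relative, and the 2 genes together had 589 and 587 counts. Ripk2 stood apart from these genes, as its share of their summed FPKM was 7.89% in NT and 18.6% in IL-4.

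None of the 4 adaptor genes was called. Myd88, the adaptor of nearly all Toll-like receptors and of the interleukin-1 receptor, had 609 and 519 counts (28.37 and 23.70 FPKM), a ratio of -0.26 [-0.43, -0.09]. Tirap, which encodes Mal, the bridge between MyD88 and Toll-like receptors 2 and 4, had 311 and 204 counts (5.91 and 3.78 FPKM), a ratio of -0.64 [-0.90, -0.38], short of the 0.75 needed. The adaptors of the other branch, which leads to interferon genes, did not share a sign. Ticam1, for TRIF, had 658 and 775 counts, a ratio of 0.21 [0.06, 0.36], and Ticam2, for the bridging adaptor TRAM, had 812 and 670, a ratio of -0.30 [-0.45, -0.16]. In each branch the bridging adaptor had the lower ratio of the pair. With the length trend subtracted, Tirap (-0.45) and Myd88 (-0.38) were close, while Ticam2 was at -0.28 and Ticam1 at 0.15. The intervals of Ticam1 and Ticam2 did not overlap, whereas those of Myd88 and Tirap did. On the FPKM scale Myd88 was above Ticam1 in NT (28.37 and 20.80), while in IL-4 the 2 were alike (23.70 and 24.01).

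The IRAK kinases pass the signal on from MyD88. Irak4, the kinase that starts the relay, was level at 561 and 552 counts, a ratio of -0.05 [-0.22, 0.12]. Irak1, its substrate and the most abundant of the 4 on the FPKM scale in each library (36.96 and 31.72), had 1580 and 1386 counts, a ratio of -0.22. Irak2, which sustains the response, was called lower at 874 counts (24.79 FPKM) in NT and 528 (14.52 FPKM) in IL-4, a ratio of -0.75 [-0.91, -0.60] (chromosome 6, 113638467 to 113695026). Irak3, for IRAK-M, a member that restrains the relay, had 632 and 410 counts (19.18 and 12.20 FPKM), a ratio of -0.65 [-0.83, -0.47], and was not called. The later-acting Irak2 and the inhibitory Irak3 therefore had ratios close to each other, with overlapping intervals, on either side of the line for a call. Irak2 lay on the line itself, and scaling by TMM or by median-of-ratios put it at -0.72 and -0.73, under the threshold.

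**Figure D3:**
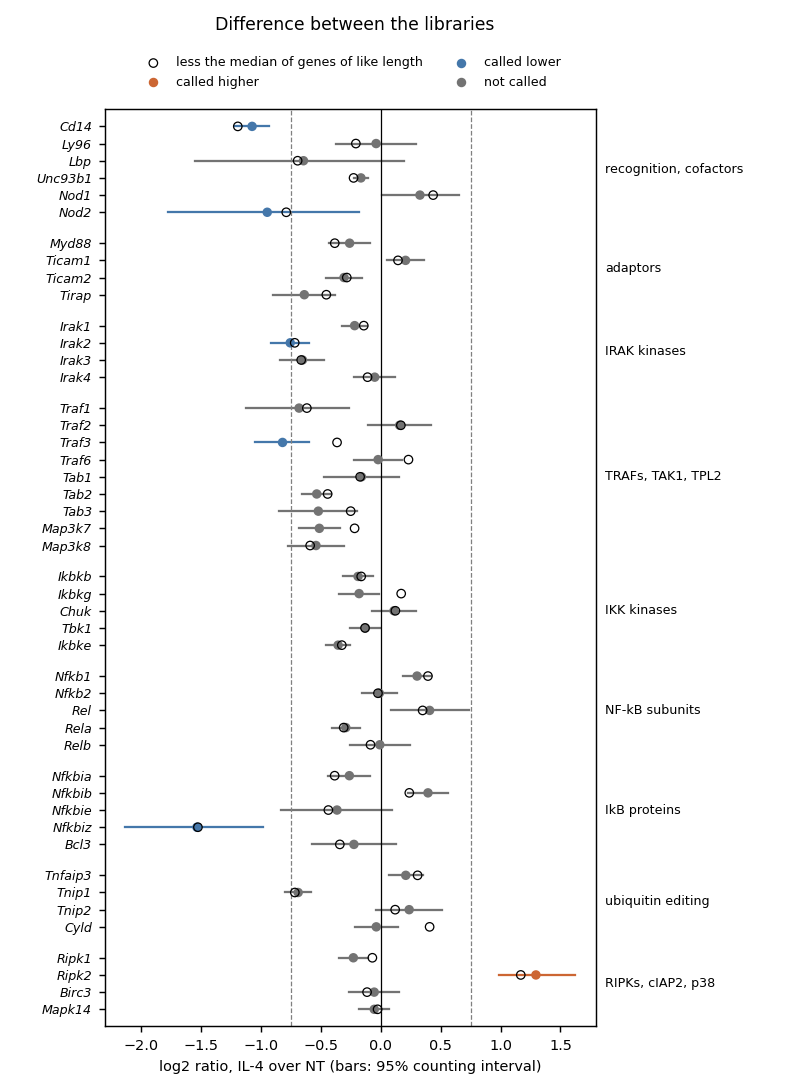
Points give the log2 ratio (IL-4 to NT) of each of the 46 genes, grouped by role, and bars its 95% counting interval, with called genes marked. Ripk2 (1.30) is the 1 gene called higher, and Nfkbiz (-1.53), Cd14 (-1.07), Nod2 (-0.95), Traf3 (-0.82) and Irak2 (-0.75) are those called lower.

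Of the role groups, the TRAF proteins with the TAK1 and TPL2 kinases had the lowest median ratio, -0.52 over 9 genes. That order depended on transcript length, since with the length trend subtracted the median was -0.25, above those of the recognition (-0.46), IRAK (-0.40), IκB (-0.38) and adaptor (-0.33) genes. Traf3, whose product holds the non-canonical NF-κB kinase NIK in check and also serves the interferon branch, was called lower. It had 443 counts (5.54 FPKM) in NT and 256 (3.13 FPKM) in IL-4, a ratio of -0.82 [-1.05, -0.59] (chromosome 12, 111166321 to 111267155). Its transcript is long, at 7150 bases in the NT table, and genes of like length were lower in IL-4 as well. Once the median ratio of genes of like length was subtracted, the value for Traf3 was -0.36 and the call was lost. Traf1, an adaptor that joins TRAF2, had 120 and 76.5 counts (2.84 and 1.76 FPKM), a ratio of -0.68 [-1.12, -0.26], and was not called.

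The TRAF genes at the core of the pathway had ratios near 0. Traf6, the ubiquitin ligase that MyD88 signals depend on, had 405 and 407 counts, a ratio of -0.02, and 0.23 with the length trend subtracted. Traf2, the counterpart at tumor necrosis factor receptors, had 231 and 263, a ratio of 0.16, with an interval that included 0.

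The TAK1 kinase complex had 4 negative ratios. Map3k7, for TAK1 itself, had 666 and 477 counts (10.47 and 7.34 FPKM), a ratio of -0.51 [-0.68, -0.34]. Tab2 and Tab3 encode the subunits that bind ubiquitin chains. Tab2 had 1368 and 964 counts (28.70 and 19.83 FPKM), a ratio of -0.53 [-0.65, -0.41]. Tab3 had 190 and 135 counts (2.66 and 1.86 FPKM), a ratio of -0.52 [-0.85, -0.19]. Tab1, the activating subunit, had 182 and 166 counts, a ratio of -0.16 with an interval that included 0. Map3k7, Tab2 and Tab3 thus had nearly the same ratio, and none was called. With the length trend subtracted their values were -0.22, -0.44 and -0.25, so length moved the TAK1 and TAB3 genes more than Tab2. Map3k8, for the kinase TPL2 that leads from IKK to ERK, had 375 and 263 counts (13.51 and 9.29 FPKM), a ratio of -0.54 [-0.77, -0.31].

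None of the 5 IKK genes was called, and their ratios lay between -0.35 and 0.11. The subunits of the complex itself had 1160 and 1038 counts for Ikbkb (IKKβ, the kinase of the canonical route), 462 and 509 for Chuk (IKKα) and 619 and 558 for Ikbkg (NEMO, the regulatory subunit). Their ratios were -0.19, 0.11 and -0.18. With the length trend subtracted the value of Ikbkg was 0.17. Of the IKK-related kinases, which act on interferon regulatory factors, Tbk1 had 1071 and 999 counts, a ratio of -0.13. Ikbke, the most abundant of the 5 on the FPKM scale (49.10 and 38.38), had 1747 and 1393 counts, a ratio of -0.35 [-0.46, -0.25]. Ikbke thus had the largest ratio in size of the 5, and it was still small.

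The NF-κB subunits had nearly the same summed level in each library, with a different make-up. The 5 genes summed to 103.18 FPKM in NT and 102.21 FPKM in IL-4, and none was called. Rela, for p65, the main activating subunit, had 1286 and 1072 counts (42.82 and 35.00 FPKM), a ratio of -0.29 [-0.41, -0.17]. Nfkb1, for p105 and its product p50, had 1051 and 1323 counts (22.86 and 28.21 FPKM), a ratio of 0.30 [0.19, 0.42]. Rel, for c-Rel, had 141 and 191 counts (4.93 and 6.54 FPKM), a ratio of 0.41 [0.09, 0.73]. Rela therefore had 41.5% of the summed FPKM in NT and 34.2% in IL-4, Nfkb1 22.2% and 27.6%, and Rel 4.78% and 6.40%. The interval of Rela lay below 0 and overlapped neither that of Nfkb1 nor that of Rel. The genes of the non-canonical pair were level. Nfkb2, for p100 and p52, had 745 and 754 counts, and Relb had 269 and 273, each a ratio of -0.01.

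**Figure D4:**
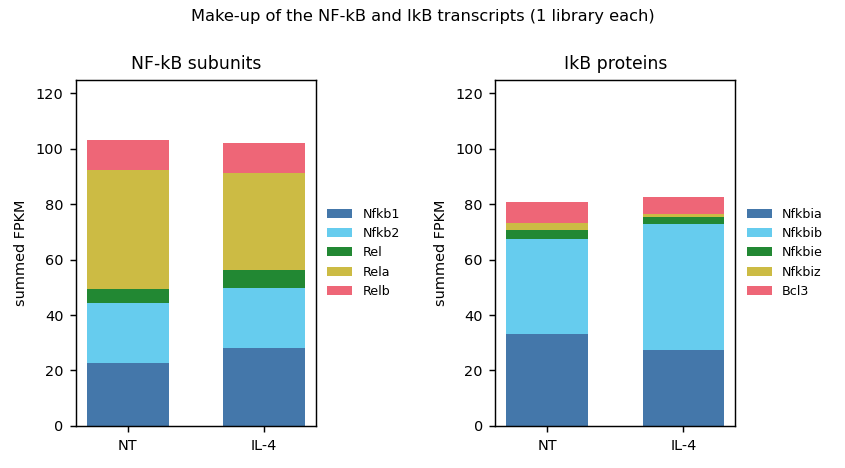
Stacked bars give the summed FPKM of the 5 NF-κB subunit genes and of the 5 IκB genes in the NT and IL-4 libraries, with 1 library per bar. The heights are alike (103.18 and 102.21, and 80.79 and 82.69 FPKM), while the parts of Nfkb1 and Nfkbib are larger and those of Rela and Nfkbia smaller in IL-4.

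The IκB genes had the pathway's lowest ratio among them. Nfkbiz encodes IκBζ, a nuclear member that NF-κB induces and that some secondary inflammatory genes require. It had 103 counts (2.56 FPKM) in NT and 36 (0.89 FPKM) in IL-4, a ratio of -1.53 [-2.13, -0.98], or 2.89-fold lower (chromosome 16, 55811375 to 55838954). Of all genes tested, 7.77% had a ratio at or below it. That share includes genes with hardly any reads, such as Tlr5 and Tlr12 (1 count in NT and 0 in IL-4, ratio -1.61). It is therefore not a rank among genes read as deeply as Nfkbiz. Among genes with at least 50 counts, 6.83% were called lower, at any ratio past the threshold, and 4.32% higher. Nfkbiz was the least abundant of the 5 in each library, at 3.17% and 1.08% of their summed FPKM.

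Nfkbia and Nfkbib, for the main cytoplasmic inhibitors, were far more abundant than Nfkbiz on the FPKM scale and differed in sign. Nfkbia, for IκBα, the inhibitor that NF-κB itself restores, had 577 and 491 counts (33.01 and 27.54 FPKM), a ratio of -0.26 [-0.44, -0.08]. Nfkbib, for IκBβ, had 522 and 700 counts (34.41 and 45.26 FPKM), a ratio of 0.40 [0.23, 0.56]. Neither was called, but their intervals did not overlap. The levels were alike in NT, and Nfkbib was the higher in IL-4, where it made up 54.7% of the summed FPKM of the IκB genes. Nfkbie, for IκBε, had 91 and 72 counts, a ratio of -0.36, and Bcl3, a nuclear member that pairs with p50 and p52, had 150 and 131, a ratio of -0.22. The intervals of both included 0.

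Of the ubiquitin genes, the most abundant had a negative ratio and its partner a small positive one. Tnip1 encodes ABIN-1, which binds ubiquitin chains and brings A20 to its targets. It had 1844 counts (61.02 FPKM) in NT and 1167 (37.94 FPKM) in IL-4, a ratio of -0.69 [-0.79, -0.58], and was not called. Tnfaip3, for A20, the ubiquitin-editing enzyme that ends NF-κB signaling, had 764 and 901 counts (15.48 and 17.96 FPKM), a ratio of 0.21 [0.07, 0.35]. Tnip1 exceeded Tnfaip3 in FPKM in each library, but less so in IL-4. Tnip2, for ABIN-2, which stabilizes TPL2, had 202 and 243 counts, a ratio of 0.24, and Cyld, a deubiquitinase, had 516 and 513, a ratio of -0.04. The intervals of Tnip2 and Cyld included 0. The Cyld transcript is long at 8050 bases, and its value was 0.41 with the length trend subtracted.

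Several of these genes are known targets of NF-κB, and their promoters were read for its motif. RefSeq windows of 250 bases before and 50 after a start site (GRCm38.p6) were given for 34 of the 46 genes. The NF-κB consensus of 10 bases was found on either strand in 11 of the 34 genes (Irak1, Traf3, Map3k7, Nfkb2, Rel, Nfkbia, Nfkbie, Bcl3, Tnfaip3, Tnip1 and Cyld), and in 9.55% of 27025 genes with a window. The member windows had a median GC content of 61.0% beside 52.7% for all windows, and the consensus is itself rich in G and C. The sites of 6 genes are printed in capitals, 5′ to 3′ on the strand of the gene with the bases around them. Those of Nfkbia, Tnfaip3 and Tnip1 stand before genes for inhibitors, those of Nfkb2 and Rel before genes for NF-κB subunits, and that of Traf3 belongs to a gene called lower.
Nfkbia, chr12:55492657-55492686, minus strand: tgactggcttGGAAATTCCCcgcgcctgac
Tnfaip3, chr10:19015403-19015432, minus strand: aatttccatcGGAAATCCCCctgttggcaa
Tnip1, chr11:54962979-54963008, minus strand: ctccatcatgGGGGAATTCCCCtcctgcct
Nfkb2, chr19:46304688-46304717, plus strand: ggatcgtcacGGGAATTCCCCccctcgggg
Rel, chr11:23771042-23771071, minus strand: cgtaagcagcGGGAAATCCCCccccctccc
Traf3, chr12:111166350-111166379, plus strand: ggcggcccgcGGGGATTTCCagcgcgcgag
The printed sites of Nfkbia, Tnfaip3, Tnip1 and Rel lie upstream of the annotated gene. Those of Nfkb2 and Traf3 lie inside its RefSeq span, before the start of one of several transcripts. The first capital lies 29 bases before the start site in Nfkbia, 12 in Tnfaip3, 58 in Tnip1, 39 in Nfkb2, 92 in Rel and 10 in Traf3. In Tnip1, Nfkb2 and Rel the capitals cover overlapping matches.

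The genes with such a site did not share a sign. Among the 6 printed, the ratios were -0.26 in Nfkbia, 0.21 in Tnfaip3, -0.69 in Tnip1, -0.01 in Nfkb2, 0.41 in Rel and -0.82 in Traf3. The median ratio was -0.22 over the 11 genes with the motif and -0.18 over the 23 without it. The motif of Stat6 named by the study, which is TTC and GAA with any 4 bases between them, on either strand, was found in 4 of the 34 genes, and in 8.01% of all genes with a window. They were Ikbkg, Tnfaip3, Ripk1 and Mapk14, with ratios of -0.18, 0.21, -0.23 and -0.05, and none was called. The sites of Tnfaip3 and Ripk1 follow with the motif in capitals, as examples from a negative regulator and a kinase.
Tnfaip3: agctgattTTCTTCAGAAaagaagctat
Ripk1: cgccgctagtTTCCTCAGAAgctggtttcc
The Tnfaip3 site begins 242 bases and that of Ripk1 124 bases before the start site. No window was given for Ripk2, Nfkbiz or Cd14. A match of letters is a description and shows no binding.

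Of all genes tested, 4.07% were called higher and 6.28% lower. Of 14 genes for Toll-like receptors and the related Cd180 and its partner Ly86, 1 was called higher and 4 lower. The median ratio was -0.05 over the 11 with at least 50 counts in the library with more. Over all 14 it was -0.54, a value set by Tlr5, Tlr11 and Tlr12, which had at most 2 counts in either library. Tlr4, the partner of CD14 and MD-2, had 1217 and 1207 counts, a ratio of -0.04, and neither it nor Ly96 was called, unlike Cd14. The Tlr4 transcript is long at 7891 bases, and its value was 0.40 with the length trend subtracted, while that of Cd14 was -1.19. Tlr2, which signals through Mal and MyD88, had 609 and 153 counts, a ratio of -2.02. Tlr13, an endosomal sensor of bacterial RNA that depends on UNC93B1, had 4156 and 1020 counts, a ratio of -2.05. In contrast Tlr8, which uses the same escort, had 2824 and 9692, a ratio of 1.75. Cd180 (2795 and 1316 counts, ratio -1.11) and Tlr9 (71 and 38, ratio -0.92) were called lower. Unc93b1, at -0.16, therefore followed neither Tlr13 nor Tlr8.

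Over all genes tested, 4.07% were called higher and 6.28% lower. The list of 25 genes known as NF-κB targets was drawn up with earlier results of these data known. Of the 25, 4 were called higher and 8 lower, and their median ratio was -0.18, or -0.39 over the 16 with at least 50 counts. The lower ones were chiefly cytokines and chemokines: Tnf (99 and 44 counts, -1.19), Ccl3 (518 and 307, -0.78), Ccl4 (103 and 48, -1.12), Cxcl16 (915 and 410, -1.18), Il1rn (675 and 392, -0.81), the chemokine-binding receptor Ccrl2 (1655 and 639, -1.40), Tnfaip2 (5885 and 2056, -1.54) and Cxcl1, which had under 50 counts. The higher ones were Ier3 (60 and 728, 3.56), Cd40 (14 and 82, 2.48), Csf1 (151 and 353, 1.19) and Zfp36, whose product destroys Tnf mRNA (580 and 1033, 0.80). The target genes therefore had no common direction. Nfkbiz, at -1.53, shared its sign with the genes called lower, while the cytokine gene Csf1 (1.19) had a positive ratio. Il1a, also a cytokine gene, was not called, at 0.17 [-0.07, 0.41].

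Beside 4.07% higher and 6.28% lower over all genes tested, 40 further genes of the pathway held 4 called higher and 1 lower. Their median ratio was -0.02, or 0.01 over the 35 with at least 50 counts. Tnip3, for ABIN-3, had 128 and 623 counts, a ratio of 2.25, beside -0.69 for Tnip1 and 0.24 for Tnip2 of the same family. Traf5 had 152 and 316 counts, a ratio of 1.03, while none of the 4 TRAF genes above was called higher. Ripk3 (145 and 251, 0.76), a relative of Ripk2, and Map2k6 (20 and 58, 1.49), for a kinase that acts on p38, were called higher. Peli2, for a ubiquitin ligase of IRAK proteins, was called lower (350 and 144, -1.31). Within the ABIN, TRAF and RIP families the members thus differed in ratio.

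**Figure D5:**
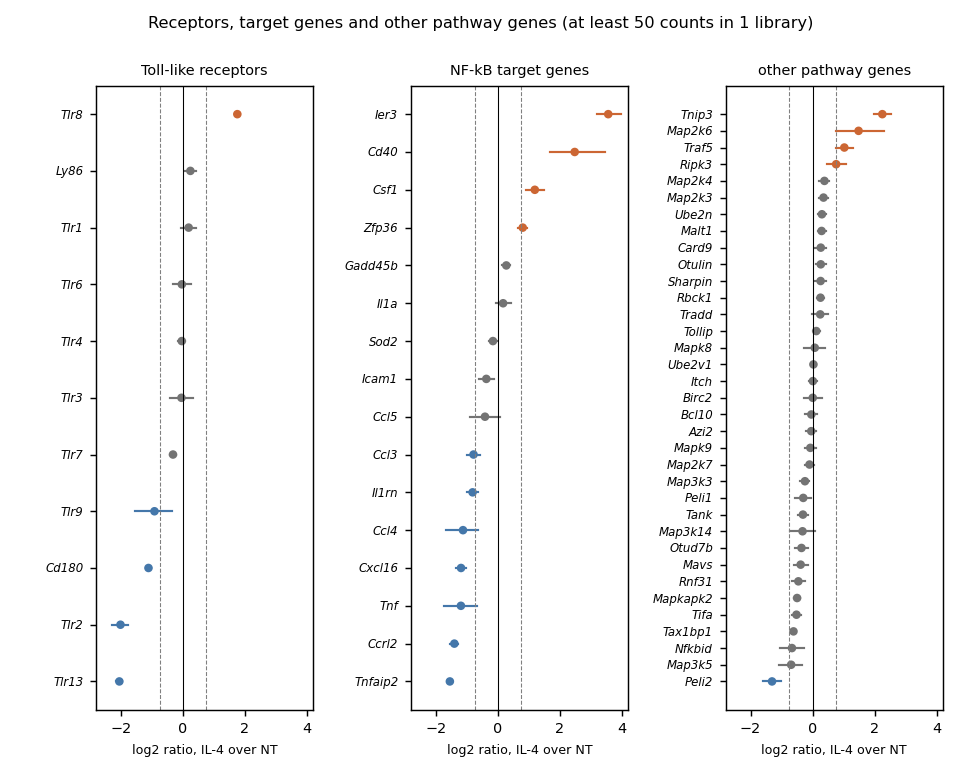
Points give the log2 ratio (IL-4 to NT) with its 95% counting interval for Toll-like receptor, NF-κB target and other pathway genes with at least 50 counts in 1 library. Tlr8 (1.75), Ier3 (3.56) and Tnip3 (2.25) stand highest in their panels, and Tlr13 (-2.05), Tnfaip2 (-1.54) and Peli2 (-1.31) lowest.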

How the data were processed

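Gene expression was measured by RNA sequencing (Illumina HiSeq) in 2 samples, grouped by their titles as NT and IL-4. Per the submitters' processing notes and the methods of the study, reads were mapped to GRCm38/mm10 with Bowtie and quantified with RSEM, versions not given in the sources used here. The authors deposited an expected count per gene, the RSEM estimate of its reads, not scaled for depth. Reads matching several transcripts, of the same gene or of other genes, are divided among them. Of the 46 genes, 11 had values that were not whole. The authors also deposited FPKM, scaled for transcript length and assigned fragments. Another deposited column, the transcript length in bases, was used for the length check. Use of strand in counting was not stated, so reads of overlapping genes cannot be told apart.

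NCBI gene numbers were matched to symbols and coordinates in a RefSeq gene table (15587 of 15623 matched). A gene absent from a table was set to 0, and 30 genes that rounded to 0 in both were not tested. Rounded expected counts were compared by an exact two-sided conditional binomial test on the library totals. The thresholds of 0.75, 0.05 and 0.5 are those of the study for this comparison. No quasi-likelihood test was possible with 1 library per group. The procedure was tested on simulated counts that held counting error only. Such counts cannot show how libraries of the same condition differ. The members and lists were chosen with earlier results of these data known. Every one of the 46 genes is named. Values with intervals are given for called genes and for those with a ratio of at least 0.5 in size and 50 counts, and other genes in shorter form. Of the other lists, called genes with at least 50 counts are named, with the markers and a few others, such as Tlr4 and Il1a, added as context.

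Alternatives were TMM (edgeR 4.0.16) and median-of-ratios scaling (DESeq2 1.42.0), FPKM with 0.1 or 1 added, other thresholds, a filter at 50 counts, an exact test in edgeR that assumed 0.2 or 0.4 as the biological coefficient of variation, and subtraction of a length trend (median ratio over the 201 genes of most similar length among those with at least 200 reads). Promoter windows came from RefSeq (GRCm38.p6). The NF-κB consensus and the Stat6 motif were searched on both strands. Software was R 4.3.3 and Python 3.11.15 with scipy 1.17.1, numpy 2.4.6, matplotlib 3.10.9 and pandas 2.3.3.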

Additional observations from a re-analysis of the deposited data

How the results depend on the processing

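Over 10 alternatives the median ratio of the 46 genes stayed between -0.20 and -0.17 wherever it was recomputed, and with TMM scaling 32 of the 46 ratios in place of 36 lay under 0. Cd14, Nfkbiz and Ripk2 kept their calls in every alternative except an assumed biological coefficient of variation of 0.4, under which 65 genes were called higher and 8 lower over all genes, and 0 and 0 of the pathway genes (edgeR exact test). With 0.2 the numbers over all genes were 390 and 423, and 2 pathway genes were lower. They were 391 and 399 with 1 added to FPKM, again with 2 lower, and 408 and 476 at a ratio of at least 1 with an adjusted value of at most 0.05, with 2 lower. A fold change over 1.5 with the same adjusted value called 9 pathway genes lower, adding Tirap, Irak3, Traf1 and Tnip1. The length trend left 3 lower (Cd14, Nod2 and Nfkbiz). Irak2 was not called with TMM or median-of-ratios scaling, and Nod2 was not tested with the filter at 50 counts. No called gene changed sign in any alternative. Of 458 comparisons of single pathway genes 10 turned the sign of a ratio that was not called, in Traf6, Nfkb2, Relb, Cyld and Ikbkg. These turns came with TMM scaling (Traf6, Nfkb2, Relb and Cyld), median-of-ratios scaling (Traf6, Nfkb2 and Relb) and the length trend (Traf6, Ikbkg and Cyld). The cause of the length trend was not tested. No paired analysis was possible because only 1 library stood in each group, and no library could be left out. With 1 library per group, differences between animals, cultures or library preparations and the effect of IL-4 cannot be told apart. Depth limits Nod2, Lbp, Nfkbie, Nfkbiz and Traf1, each with under 100 counts in 1 or both libraries.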
